A study of Mus musculus with 12 samples.

Results

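The genes examined here are 6 that act on thyroid hormone in the cell: the deiodinases Dio2 and Dio3, the membrane transporter Slc16a10, the nuclear receptors Thra and Thrb, and the cytosolic hormone-binding protein Crym. They were selected by gene symbol from the 55401 genes of the count table, and all 6 are in it. Dio2 was chosen on these data for its large difference between genotypes after surgery, so its values in libraries taken after aortic constriction are described here without a test. RNA sequencing was done on mouse left ventricle in 12 libraries, 3 for each of 4 groups: Prkca T497A mice after transverse aortic constriction (TAC), wild type (WT) mice after TAC, Prkca T497A mice after sham surgery and WT mice after sham surgery. Prkca encodes protein kinase C alpha, and T497A is a threonine-to-alanine change at its activation loop. TAC narrows the aorta by surgery and loads the left ventricle with pressure; sham animals have the operation without the narrowing. All mice had surgery at 10 weeks of age and gave tissue 5 weeks later, at 15 weeks. The strain, the sex, the copy number of the allele and whether each library is 1 animal are not stated in the labels, so a p-value here speaks only for the spread among the sequenced libraries.

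The thyroid gland releases mostly thyroxine, a prohormone. Inside tissues the type 2 deiodinase (Dio2) converts it to triiodothyronine, the active hormone, and the type 3 deiodinase (Dio3) inactivates both. Transporters such as the product of Slc16a10 carry the hormones across the cell membrane, and the receptors encoded by Thra and Thrb bind DNA, mostly as partners of retinoid X receptors, and switch target genes up or down. In the heart the hormone is known to raise Myh6, Atp2a2 and several ion channel genes and to lower Myh7.

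On GRCm38, Dio2 (ENSMUSG00000007682.6) lies on chromosome 12 at 90724552 to 90738438 on the minus strand. Dio3 (ENSMUSG00000075707.5) lies on the same chromosome, 19.54 Mb away, at 110279068 to 110281097 on the plus strand. Slc16a10 (ENSMUSG00000019838.11) spans chromosome 10 from 40033532 to 40142258 on the minus strand, and Thrb (ENSMUSG00000021779.17) spans chromosome 14 from 17660261 to 18038090 on the plus strand. Thra (ENSMUSG00000058756.13) lies on chromosome 11 at 98740638 to 98769006 on the plus strand, 9.164 Mb from Prkca on that chromosome, and Crym (ENSMUSG00000030905.5) lies on chromosome 7 at 120186380 to 120202111 on the minus strand.

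The sequence before the start of Dio2 is shown because Dio2 was the gene chosen on these data, and that of Slc16a10 because its transcript ran in the opposite direction. Both are RefSeq sequences of GRCm38.p6 on the minus strand, written 5′ to 3′: chr12:90739039-90739288 for Dio2 and chr10:40142259-40142504 for Slc16a10. Capitals mark matches to TGACGTCA, the full cAMP response element, and to TATAAA, the TATA box.
Dio2: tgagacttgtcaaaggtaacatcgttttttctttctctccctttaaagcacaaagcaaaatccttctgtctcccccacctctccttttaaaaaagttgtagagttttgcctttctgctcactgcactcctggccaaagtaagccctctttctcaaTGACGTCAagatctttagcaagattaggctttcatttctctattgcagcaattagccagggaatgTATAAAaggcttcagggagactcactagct
Slc16a10: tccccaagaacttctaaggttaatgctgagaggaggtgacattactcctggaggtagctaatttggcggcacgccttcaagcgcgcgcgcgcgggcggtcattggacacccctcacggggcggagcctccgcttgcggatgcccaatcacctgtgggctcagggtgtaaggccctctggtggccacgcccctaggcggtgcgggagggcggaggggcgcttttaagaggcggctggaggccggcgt
In the Dio2 sequence TGACGTCA ran from -95 to -88 and TATAAA from -30 to -25, counted from the RefSeq start, which lies 600 bases upstream of the start in the GENCODE annotation. Both motifs, and AGGTCA, the core hexamer that hormone receptors bind, were sought on both strands in windows of 300 bases around each RefSeq start. Of 32851 mouse promoters of that length, 1.79% held TGACGTCA, 13.6% held TATAAA and 16.3% held AGGTCA. The Dio3 window held TATAAA at -31 to -26. Of the windows at the Thrb starts, the first held AGGTCA at -184 to -179 and the second TATAAA at -167 to -162. The RefSeq starts used for Dio3 and Thrb lie downstream of the GENCODE starts, so these matches lie inside the GENCODE gene spans. None of the 3 motifs is in the Slc16a10 window. Thra and Crym were not searched.

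Dio2 stood high in WT hearts after TAC and low everywhere else. Its level in CPM, the count scaled to a common library size, was 3.61, 4.25 and 4.08 in T497A TAC hearts and 22.5, 17.7 and 31.7 in WT TAC hearts, against 2.04, 3.11 and 1.45 in T497A sham hearts and 1.59, 2.88 and 2.87 in WT sham hearts. Every WT TAC library lay above every other library, the T497A TAC libraries lay above the T497A sham libraries with no overlap, and the sham groups overlapped. These levels rested on 162 to 176 counts a library in T497A TAC hearts and 765 to 1363 in WT TAC hearts, against 66 to 112 in T497A sham hearts and 69 to 129 in WT sham hearts. As a description, T497A TAC hearts had 6.03-fold less Dio2 than WT TAC hearts (log2 fold change -2.59 ± 0.29, SE). TAC against sham gave 1.82-fold in T497A hearts (log2 0.87 ± 0.31) and 9.81-fold in WT hearts (log2 3.29 ± 0.31). The comparison of genotypes after sham used none of the TAC libraries and was tested: Dio2 averaged 2.20 ± 0.838 CPM in T497A sham hearts and 2.45 ± 0.742 CPM in WT sham hearts (SD, n = 3 each), a log2 fold change of -0.16 ± 0.32 (edgeR quasi-likelihood adjusted p = 1).

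**Figure D1:**
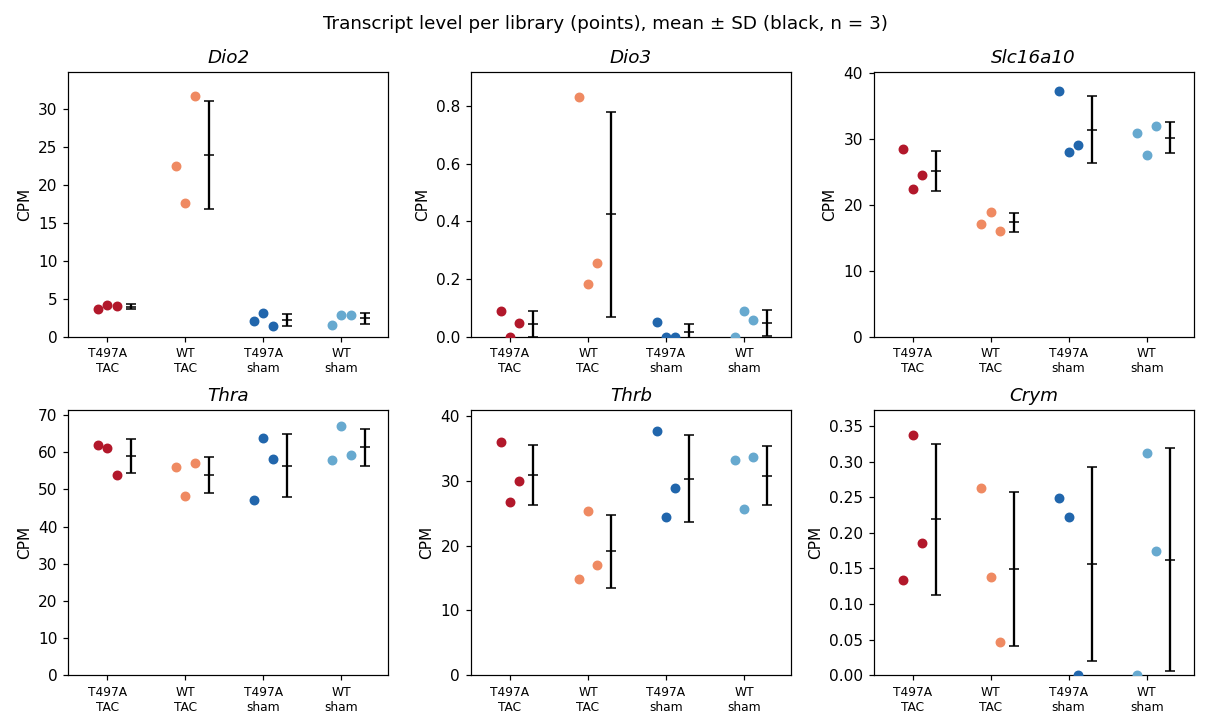
Level of the 6 genes in CPM on linear axes, 1 point a library and 4 groups a panel, with the mean and SD of 3 libraries in black (bars are cut at 0). Dio2 and Dio3 are highest in WT TAC hearts, where Slc16a10 is lowest.

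Dio3, which inactivates the hormone, was near the limit of detection. It had 4, 0 and 2 counts in T497A TAC hearts and 38, 8 and 11 in WT TAC hearts, against 2, 0 and 0 in T497A sham hearts and 0, 4 and 2 in WT sham hearts. The WT TAC libraries were all above the rest, and 1 of them held 38 of that group's 57 counts. With all libraries Dio3 did not pass the low-count filter and so was not tested with the other genes. Pooled over libraries, the scaled ratio was 0.107 for T497A TAC over WT TAC hearts (95% exact interval 0.0378 to 0.248) and 8.83 for WT TAC over WT sham hearts (3.82 to 25.1); these intervals cover counting error only. With no filter, edgeR gave a log2 fold change of -3.14 ± 1.01 for T497A against WT after TAC (adjusted p = 0.0363) and 3.04 ± 1.01 for TAC against sham in WT hearts (adjusted p = 0.0237). The difference between the TAC effects, T497A minus WT, was -1.72 ± 1.96 in that fit (adjusted p = 0.945). These values rest on few libraries. Without WT TAC replicate 1 the ratio was 0.210 for T497A TAC over WT TAC hearts (0.0688 to 0.548) and 4.50 for WT TAC over WT sham hearts (1.73 to 13.8), with unfiltered edgeR adjusted p of 0.585 and 0.501. The ratio of T497A TAC over WT TAC was 0.0547 without T497A TAC replicate 1, and its unfiltered call was lost without T497A TAC replicate 2 (adjusted p = 0.145, edgeR) or 3 (0.0887). The ratio of WT TAC over WT sham was 5.71 without WT sham replicate 1 and 16.8 without WT sham replicate 2, and its unfiltered call was lost without WT sham replicate 1 (adjusted p = 0.145, edgeR) or 3 (0.0508). With the filter kept, Dio3 passed it in fits that left out 1 library, except those without WT TAC replicate 1 or 3. It passed only through the 38 and 11 counts of those libraries. The adjusted p-values of these fits therefore lack the fits without them and are no separate support. In the fits where Dio3 passed the filter, T497A against WT after TAC was never called (edgeR adjusted p 0.0722 to 0.191). TAC against sham in WT hearts ranged from 0.0394 to 0.142. DESeq2 gave no adjusted p for Dio3 between genotypes after TAC.

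Low counts in this table were mostly even numbers, which bears on Dio3 and Crym. Among genes with counts of 1 to 20, 68.2% to 70.6% of counts were even in each library, against 50.3% to 52.8% above 1000 counts. The sources used here do not give the reason. With counts halved, the pooled Dio3 ratio of WT TAC over WT sham was 8.98 with a wider interval of 2.78 to 46.1.

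Dio3 lies in the imprinted Dlk1-Dio3 domain, beside the noncoding gene Dio3os, which starts 895 bp away on the other strand. Dio3os had 8, 0 and 10 counts in T497A TAC hearts and 39, 13 and 19 in WT TAC hearts, against 15, 4 and 4 in T497A sham hearts and 7, 2 and 6 in WT sham hearts. In TAC against sham in WT hearts its log2 fold change was 2.07 ± 0.85 (adjusted p = 0.094, edgeR). Of 6 domain genes listed besides Dio3, with Dio3os among them, 4 could be tested and 0 passed by edgeR in that comparison. Their median log2 fold change, which includes the value of Dio3os, was 1.22 against 0.01 over all genes.

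Slc16a10, a transporter of aromatic amino acids and thyroid hormone (MCT10), fell with TAC in WT hearts and was higher in T497A than in WT hearts after TAC. It measured 28.5, 22.5 and 24.5 CPM in T497A TAC hearts and 17.1, 18.9 and 16.0 CPM in WT TAC hearts, against 37.2, 27.9 and 29.0 CPM in T497A sham hearts and 30.9, 27.5 and 32.0 CPM in WT sham hearts. The WT TAC libraries were below all others. For T497A against WT after TAC the log2 fold change was 0.54 ± 0.12, or 1.45-fold (edgeR adjusted p = 0.0170). For TAC against sham in WT hearts it was -0.80 ± 0.12, or 1.74-fold lower (edgeR adjusted p = 0.000395). In T497A hearts TAC against sham gave -0.32 ± 0.12 (adjusted p = 0.322, edgeR), with overlapping libraries. The difference between these TAC effects, T497A minus WT, was 0.48 ± 0.17 and did not pass (adjusted p = 0.171, edgeR), though with no low-count filter it did (adjusted p = 0.0390). The call between genotypes after TAC was lost without T497A TAC replicate 1 (adjusted p = 0.0734) and without WT TAC replicate 3 (adjusted p = 0.0831), while the call in WT hearts passed under each of the 19 alternatives run.

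Thrb, the receptor gene for the beta isoforms, was lower in WT hearts after TAC, and this call was near the threshold. It measured 36.0, 26.8 and 29.9 CPM in T497A TAC hearts and 14.8, 25.4 and 17.1 CPM in WT TAC hearts, against 37.8, 24.5 and 28.9 CPM in T497A sham hearts and 33.2, 25.6 and 33.7 CPM in WT sham hearts. As scaled here, WT TAC replicate 2, at 25.4 CPM, was just under the lowest WT sham library. On raw library totals it lay above that library and within the range of T497A TAC hearts. TAC against sham gave a log2 fold change of -0.69 ± 0.22 in WT hearts, 1.61-fold lower (edgeR adjusted p = 0.0427), and 0.02 ± 0.22 in T497A hearts (adjusted p = 0.978). Of 19 alternatives, 10 kept the WT call, with adjusted p between 0.00468 and 0.140; leaving out any 1 of 7 libraries lost it: T497A TAC replicate 2 (adjusted p = 0.0517) or 3 (0.0617), T497A sham replicate 3 (0.0601), WT TAC replicate 1 (adjusted p = 0.135), WT TAC replicate 3 (0.140), WT sham replicate 1 (0.123) or WT sham replicate 3 (0.127). It was also lost with no low-count filter (0.132) and in a fit of only the WT groups (0.0588). T497A against WT after TAC gave 0.69 ± 0.22 with no overlap of libraries as scaled here. It did not pass with edgeR (adjusted p = 0.0808), whereas DESeq2 gave an adjusted p of 0.00982. It also passed without WT TAC replicate 2 (adjusted p = 0.0153, edgeR). The difference between the TAC effects, T497A minus WT, was 0.72 ± 0.31 (adjusted p = 0.277, edgeR).

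Thra, the receptor gene for the alpha isoforms and the more abundant of the pair, did not pass the test in any comparison. It measured 62.0, 61.2 and 53.8 CPM in T497A TAC hearts and 56.1, 48.2 and 57.0 CPM in WT TAC hearts, against 47.1, 63.9 and 58.2 CPM in T497A sham hearts and 57.9, 67.0 and 59.2 CPM in WT sham hearts. As scaled here, the WT TAC libraries lay below the WT sham libraries without overlap, whereas on raw library totals they overlapped. The log2 fold change was only -0.19 ± 0.11 (edgeR adjusted p = 0.233). Between genotypes after TAC it was 0.13 ± 0.11 (adjusted p = 0.509, edgeR). The ratio of Thra to Thrb counts was 1.72, 2.28 and 1.80 in T497A TAC hearts and 3.78, 1.89 and 3.34 in WT TAC hearts, against 1.25, 2.61 and 2.01 in T497A sham hearts and 1.74, 2.61 and 1.76 in WT sham hearts. The highest ratios were in WT TAC replicates 1 and 3, and replicate 2 of that group lay among the other libraries.

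The 3′ end of Thra overlaps Nr1d1, the clock gene for REV-ERB alpha, on the opposite strand, over 263 exonic bases or 5.7% of the Thra exons. Whether counting used strand is not given, so reads from the shared bases cannot be assigned. Nr1d1 ranged from 29.6 to 136 CPM over the 12 libraries, with wide ranges inside each group. On log2 CPM, Thra followed Nr1d1 with a Pearson r of 0.83 (permutation p = 0.00095, adjusted over 2 relations 0.0019) and a Spearman rho of 0.67 (permutation p = 0.0203, adjusted 0.0406). Without the 2 libraries with the most extreme Nr1d1 levels r was 0.52. Thrb, which shares no bases with Nr1d1, gave r = -0.48 (permutation p = 0.108, adjusted 0.108) and rho = -0.49 (permutation p = 0.108, adjusted 0.108), and r = -0.46 without those 2 libraries. The permutations shuffled all 12 libraries without regard to group, so their p-values do not speak for association within groups. The part of Nr1d1 reads in the Thra values was not tested.

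Crym, a cytosolic protein that binds triiodothyronine, was barely detected. It had 6, 14 and 8 counts in T497A TAC hearts and 12, 6 and 2 in WT TAC hearts, against 10, 8 and 0 in T497A sham hearts and 0, 14 and 6 in WT sham hearts. All groups overlapped, and a difference between them was not detectable at this depth.

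**Figure D2:**
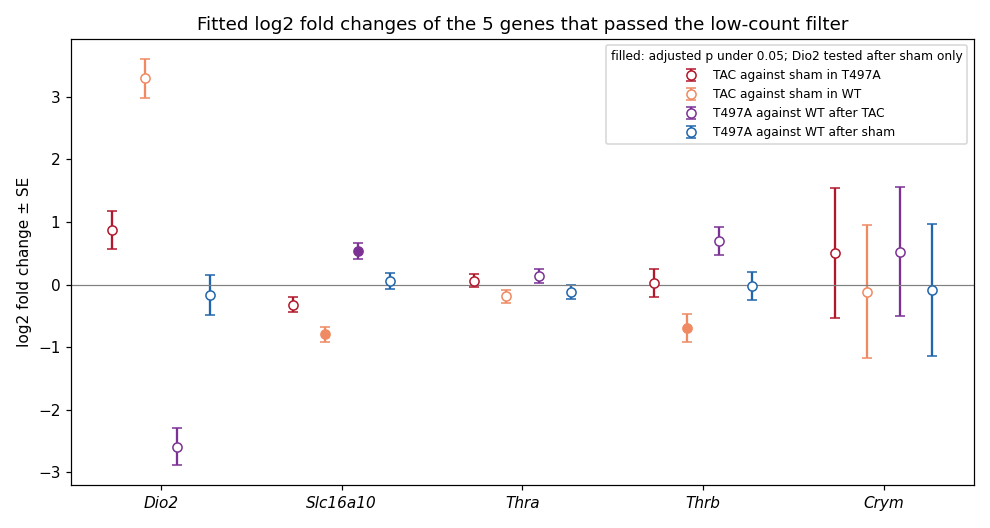
Fitted log2 fold changes with SE (y axis) of the 5 genes that passed the low-count filter (x axis), in 4 comparisons by colour; filled points have an adjusted p under 0.05, and Dio2 was tested after sham only. Dio2 runs from 3.29 for TAC in WT hearts to -2.59 for T497A against WT after TAC, and in both comparisons its sign is opposite to those of Slc16a10 and Thrb.

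Set per kilobase of exon, the mean level of Thra was the highest of the 6 in each group, at 12.8, 11.7, 12.2 and 13.3 CPM per kb in T497A TAC, WT TAC, T497A sham and WT sham hearts. Dio2 came to 0.684 CPM per kb in T497A TAC hearts and 4.12 in WT TAC hearts, against 0.378 in T497A sham and 0.421 in WT sham hearts. In WT TAC hearts its mean was therefore above those of Thrb, at 2.58, and Slc16a10, at 2.36, and in the other 3 groups it was below both. Dio3 and Crym averaged between 0.00817 and 0.209 CPM per kb. The third deiodinase gene, Dio1, had 0 counts in all 12 libraries, which allows up to 3 counts in each.

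Counted together, 2 of the 4 testable members were called lower with TAC in WT hearts (Slc16a10 and Thrb), where 25% of 15764 genes were called, 12.6% lower and 12.3% higher. For T497A against WT after TAC, 1 of 4 was called (Slc16a10, higher), beside 8.7% of all genes, 4.64% higher and 4.06% lower. With TAC in T497A hearts edgeR called 0 of 4, beside 0.114% of all genes; at an unadjusted p under 0.05 there was 1, Slc16a10, and DESeq2 and limma-voom called 0. After sham, with Dio2 included, edgeR called 0 of 5, beside 0.0254% of all genes, and unadjusted p, DESeq2 and limma-voom also gave 0. In the test of the difference between the TAC effects edgeR called 0 of 4, beside 1.55% of all genes, with 2 at an unadjusted p under 0.05 (Slc16a10 and Thrb) and 0 by DESeq2 and limma-voom. As scaled here, groups did not overlap for 3 of 4 with TAC in WT hearts, beside 42.2% of all genes, and for 2 of 4 between genotypes after TAC, beside 28%. On raw library totals Thra and Thrb overlapped with TAC in WT hearts, and Thrb between genotypes after TAC. For TAC in T497A hearts and for the genotypes after sham 0 of the tested members were free of overlap, beside 15.4% and 8.21% of all genes.

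The other genes of the pathway were read from lists of 62 genes, of which 58 could be tested. With TAC in WT hearts 4 of the 58 were called higher and 18 lower, beside 12.3% higher and 12.6% lower over all genes, with a median log2 fold change of -0.14 against 0.01 over all genes. Among 17 genes that thyroid hormone is known to raise, 9 fell, beside that 12.6%, and 0 rose by edgeR, and their median was -0.61. These included the potassium channel gene Kcnd2 (-1.57 ± 0.15, adjusted p = 1.7e-05), the pacemaker channel gene Hcn2 (-0.98 ± 0.16, adjusted p = 0.000563) and the calcium release channel gene Ryr2 (-0.86 ± 0.12, adjusted p = 0.000279). The other 8 did not pass; Klf9, a transcription factor gene that the hormone raises directly, gave -0.29 ± 0.20 (adjusted p = 0.324), and Hr, a corepressor gene raised in brain, gave 0.42 ± 0.28 (adjusted p = 0.321). Myh6 averaged 15741 ± 2229 CPM in WT TAC hearts and 24020 ± 4473 CPM in WT sham hearts (SD, n = 3 each). Atp2a2 averaged 10150 ± 762 CPM in WT TAC hearts and 17701 ± 832 CPM in WT sham hearts (SD, n = 3 each). Of 6 genes that the hormone is known to lower, Myh7, the beta myosin heavy chain, rose (2.80 ± 0.66, adjusted p = 0.0151), whereas the calcium pump inhibitor Pln (-0.57 ± 0.10, adjusted p = 0.00117) and the adenylyl cyclase gene Adcy6 (-0.46 ± 0.13, adjusted p = 0.0245) fell. Myh6, Ryr2 and Pln are also counted among the 8 cardiomyocyte markers below, of which 7 were called lower in the same comparison.

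The other lists are short, and their counts with TAC in WT hearts are read against the 25% of all genes called there. Of 3 retinoid X receptor genes, Rxra (-0.43 ± 0.08, adjusted p = 0.00141, edgeR) and Rxrg (-0.73 ± 0.10, adjusted p = 0.000159) fell there. Rxrg measured 44.7, 35.8 and 39.7 CPM in T497A TAC hearts and 30.3, 27.7 and 25.9 CPM in WT TAC hearts, against 43.3, 49.2 and 46.4 CPM in T497A sham and 42.0, 49.98 and 47.2 CPM in WT sham hearts. Of 7 tested transport and binding genes, Slc7a5 (0.92 ± 0.17, adjusted p = 0.00167) and Slc3a2 (0.52 ± 0.15, adjusted p = 0.019), the subunits of an amino acid exchanger that also carries thyroid hormone, rose. Of 6 genes for ubiquitination and deubiquitination of the type 2 deiodinase, Ube2g2 rose (0.39 ± 0.11) and Marchf6 fell (-0.49 ± 0.07). Ncor1 and Hdac3 fell among 6 corepressor genes, Ncoa1 and Ncoa2 fell among 7 coactivator genes, and 0 of 6 genes for selenocysteine insertion, on which deiodinases depend, passed the test. Where 2 were called in a list of 6 or 7 genes, the share lies near that of all genes and is no result about the list.

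For T497A against WT after TAC, 9 of the 58 list genes were called higher and 0 lower by edgeR, beside 4.64% higher and 4.06% lower over all genes; DESeq2 called 12 and limma-voom 9. The list genes had a median log2 fold change of 0.09 against 0.00 over all genes. Those called were Kcnd2 (1.23 ± 0.15, adjusted p = 0.000703), Ryr2 (0.56 ± 0.12), Rxrg (0.52 ± 0.10), Atp2a2 (0.44 ± 0.09), Pln (0.39 ± 0.10), Slc2a4 (0.36 ± 0.09), Med1 (0.35 ± 0.06), Rxra (0.34 ± 0.08) and Marchf6 (0.29 ± 0.07). The count was 5 without T497A TAC replicate 1 or 3, and 4 without WT TAC replicate 3. Myh7, which did not pass, had a larger log2 fold change of -1.67 ± 0.63 (adjusted p = 0.148, edgeR): it averaged 815 ± 383 CPM in T497A TAC hearts and 2600 ± 291 CPM in WT TAC hearts (SD, n = 3 each), with no overlap. With TAC against sham in T497A hearts Myh7 gave 1.69 ± 0.63 (adjusted p = 0.347, edgeR), and its libraries overlapped. With TAC in T497A hearts edgeR called 0 of 58 and limma-voom 0, DESeq2 called 2, and 8 had an unadjusted p under 0.05. After sham edgeR, DESeq2 and limma-voom called 0, and 2 had an unadjusted p under 0.05. The TAC effect itself differed between genotypes for Kcnd2 (T497A minus WT 1.12 ± 0.20, adjusted p = 0.0228) and Ryr2 (0.78 ± 0.17, adjusted p = 0.0432), both by edgeR. The count for this difference was 0 without T497A TAC replicate 1 or 3, WT TAC replicate 3, T497A sham replicate 3, or WT sham replicate 1 or 3. Kcnd2 measured 32.0, 31.7 and 30.3 CPM in T497A TAC hearts and 11.9, 16.8 and 11.5 CPM in WT TAC hearts, against 51.1, 36.8 and 40.7 CPM in T497A sham hearts and 37.8, 37.9 and 43.4 CPM in WT sham hearts. The T497A TAC and WT TAC libraries of Kcnd2 did not overlap, and those of the sham groups did.

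**Figure D3:**
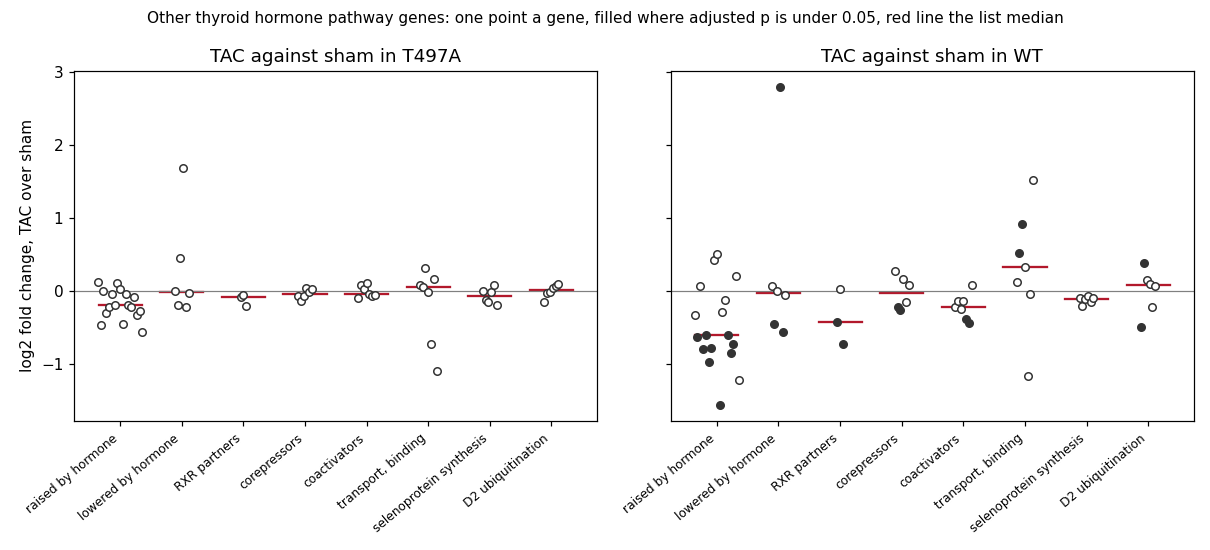
Log2 fold change of TAC over sham (y axis) in T497A hearts (left) and WT hearts (right) for the list genes tested, 1 point a gene by list (x axis), filled where the adjusted p is under 0.05; red lines are list medians. With TAC in WT hearts 9 of 17 genes known to be raised by the hormone are filled and all 9 lie below 0.

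Genes with levels most like those of Dio2 over the 12 libraries were Creb3l2 (Pearson r of log2 CPM 0.99), Hbegf (0.98), Endod1 (0.98), Col16a1 (0.98) and Otulin (0.98). Creb3l2, an endoplasmic reticulum transcription factor, measured 57.1, 67.2 and 63.4 CPM in T497A TAC hearts and 104, 95.9 and 113 CPM in WT TAC hearts, against 48.9, 52.6 and 48.6 CPM in T497A sham and 50.2, 58.5 and 55.9 CPM in WT sham hearts. Like Dio2, all 5 were highest in the WT TAC libraries, a separation that fixes most of r, and the 5 highest by Spearman's rho were other genes. The genes most like Slc16a10 were Idh3a (0.98), Agtpbp1 (0.98) and Erc1 (0.98). Those most like Thrb were Kansl1 (0.97), Pias1 (0.96) and Ppp4r3b (0.95), and those most like Thra were Eepd1 (0.93), Gja1 (0.91) and Nrp1 (0.90). Pcdhb10 (0.93), Mon1b (0.87) and Dkk2 (0.86) were most like Crym, at its low counts. With Spearman's rho in place of Pearson r, the named genes mostly changed for 4 of these 5 members, Dio2 among them.

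**Figure D4:**
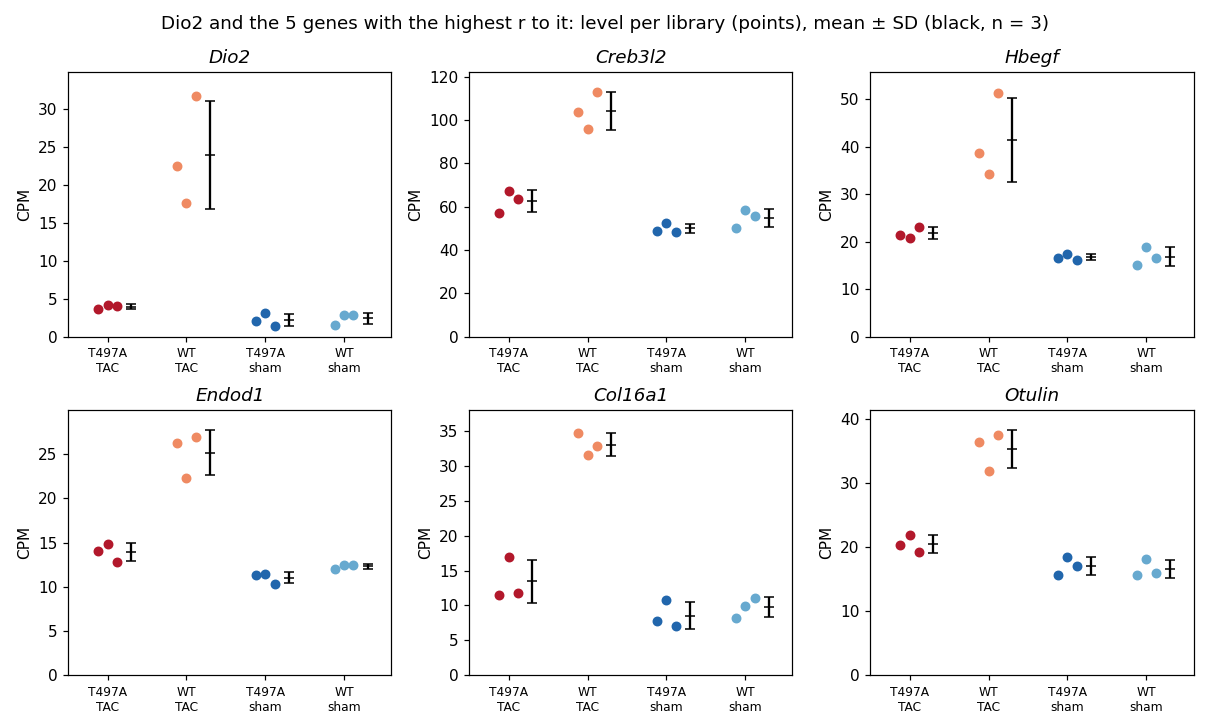
Level in CPM of Dio2 and the 5 genes with the highest Pearson r to it, 1 point a library and 4 groups a panel, with the mean and SD of 3 libraries in black. The WT TAC libraries are the highest 3 in each panel.

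The labelled cell type is cardiomyocyte, but RNA came from whole cardiac tissue per the labels' protocol and markers of other cell types were present, so fewer cells of a type and less RNA per cell cannot be told apart. Summed cardiomyocyte markers (8 genes) ranged from 40164 to 42123 CPM in T497A TAC hearts and from 33155 to 40632 CPM in WT TAC hearts, against 42701 to 50339 CPM in T497A sham and 47276 to 56422 CPM in WT sham hearts; 7 of 8 were called lower with TAC in WT hearts. Summed fibroblast markers (6 genes) ranged from 1086 to 1254 CPM in T497A TAC hearts and from 1502 to 1726 CPM in WT TAC hearts, against 795 to 1037 CPM in T497A sham and 834 to 886 CPM in WT sham hearts, with 3 of 6 called higher with TAC in WT hearts. Of 5 macrophage markers 4 rose there, their sum ranging from 117 to 158 CPM in T497A TAC and 151 to 185 CPM in WT TAC hearts, against 102 to 129 CPM in T497A sham and 99.9 to 110 CPM in WT sham hearts. Transcripts of the mitochondrial genome took 24.6% to 26.1% of counts in T497A TAC hearts and 19.6% to 20.9% in WT TAC hearts, against 28.3% to 30.9% in T497A sham and 25.1% to 29.0% in WT sham hearts; with those genes left out, the same members were called in each comparison. Summed skeletal muscle markers (6 genes) ranged from 0.556 to 2.19 CPM in T497A TAC and 1.42 to 27.4 CPM in WT TAC hearts. In sham hearts they ranged from 3.06 to 19.6 CPM (T497A) and 1.42 to 16.2 CPM (WT). The highest sum was in WT TAC replicate 2. Summed atrial markers (3 genes) ranged from 6.36 to 51.1 CPM in T497A TAC and 15.6 to 36.2 CPM in WT TAC hearts. In sham hearts these were 30.3 to 110 CPM (T497A) and 19.9 to 44.1 CPM (WT). The part of the shifts in marker levels in the levels of Dio2, Slc16a10, Thrb and the pathway list genes was not tested. For brown fat, where Dio2 is abundant, the sum of 6 adipocyte and brown fat markers ranged from 17.4 to 19.2 CPM in T497A TAC hearts and from 19.0 to 23.2 CPM in WT TAC hearts, against 15.8 to 20.8 CPM in T497A sham and 14.8 to 18.0003 CPM in WT sham hearts. Most of it was Cidea, a lipid droplet protein, at 16.7 ± 1.70 CPM in T497A TAC and 19.7 ± 2.91 CPM in WT TAC hearts, against 17.1 ± 3.20 CPM in T497A sham and 15.7 ± 1.95 CPM in WT sham hearts (SD, n = 3 each). With TAC in WT hearts Cidea gave 0.32 ± 0.15 (adjusted p = 0.130, edgeR) and between genotypes after TAC -0.24 ± 0.15 (adjusted p = 0.355), with overlapping libraries. Adipoq, Plin1 and Cfd were detected at 0 to 62 counts a library and Elovl3 at 0 to 5. Ucp1, the defining brown fat marker, had 0 counts in 11 libraries and 2 in WT sham replicate 2. Of the 4 markers tested edgeR called 0 in each comparison, with 1 at an unadjusted p under 0.05 (Cidea, TAC in WT hearts), and the part of fat cells in the Dio2 level was not tested. The thyroid gland marker Pax8 had 0 counts in all libraries.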

How the data were processed

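The authors deposited whole-number read counts per gene for 12 mouse left ventricle libraries, without normalization. The submitters' processing notes list mm10, limma 3.50.3, Subread 1.6.3, featureCounts, STAR 2.7.3a and Trim Galore 0.6.4. Settings, strand use and the handling of multimapped reads are not given in these notes or in the labels. Totals ran from 36862004 to 46898344 counts a library. No 2 replicates agreed within sampling noise (chi-square test of counts), and 0 columns were left unmapped. Groups came from the labels; the replicates were numbered in accession order, which pairs nothing. A point mutation is not seen in gene counts, so the genotype labels were not checked.

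Counts were scaled to CPM with TMM factors. In R 4.3.3, edgeR 4.0.16 (filterByExpr, minimum count 10, 15764 genes kept; glmQLFit robust, glmQLFTest) was fitted to 4 groups together, and p-values were adjusted by Benjamini and Hochberg over the whole tested table, with calls under 0.05. SE was taken as the size of the log2 change over the root of F. The biological coefficient of variation was 17.2%. DESeq2 1.42.0, limma 3.58.1 (voom), RLE scaling, no filter, no mitochondrially encoded genes, a fit of only the groups compared and leaving out each library were alternatives; halving counts, and for Dio3 no filter together with leaving out each library, were added after seeing the data. The edgeR steps were tested on simulated data. Motifs, positions and lengths came from RefSeq GRCm38.p6 promoters and GENCODE M21, in which 54349 of the 55401 identifiers were found.

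The members and gene lists were chosen with earlier results of these data known. All 6 members are named, as are list genes that passed, or, where over 6 did in a list, the 3 largest in each direction; genes alike are the 5 (Dio2) or 3 with the highest Pearson r of log2 CPM (prior count 2). Klf9 and Hr, and the levels of Myh6 and Atp2a2, were named after their values were seen.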

Additional observations from a re-analysis of the deposited data

Results flagged for a closer look

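The TAC effect differed between genotypes by the interaction test of edgeR for 2 of the 58 list genes. For Kcnd2 the log2 TAC effect in T497A minus that in WT was 1.12 ± 0.20 (adjusted p = 0.0228), and for Ryr2 it was 0.78 ± 0.17 (adjusted p = 0.0432). Neither passed without T497A TAC replicate 1 or 3, WT TAC replicate 3, T497A sham replicate 3, or WT sham replicate 1 or 3. Both fell with TAC in WT hearts and neither passed in T497A hearts. Kcnd2 was nonetheless lower with TAC in T497A hearts too, at 30.3 to 32.0 CPM against 36.8 to 51.1 CPM after sham. Its unadjusted p there was under 0.05 by edgeR, and the Ryr2 libraries overlapped.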

How the results depend on the processing

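With each library left out in turn, the members called ranged from 1 to 3 with TAC in WT hearts (2 with all libraries) and from 0 to 2 for T497A against WT after TAC (1 with all libraries). Where 3 were called, Dio3 was among them, in fits where it passed the filter through its WT TAC counts. The list genes called ranged from 18 to 23 (22), 4 to 11 (9) and, for the difference between TAC effects, 0 to 4 (2). A fit of only the groups compared called 1 member with TAC in WT hearts. For T497A against WT after TAC DESeq2 called 2 members (Thrb added) and no filter 2 (Dio3 added); for the difference between TAC effects no filter called 1 (Slc16a10). DESeq2 and no filter called 2 and 4 list genes with TAC in T497A hearts (0 by edgeR), and 5 and 7 for the difference between TAC effects. DESeq2 called Dio3 with TAC in WT hearts (adjusted p = 0.0474). The cause was not tested. On raw library totals the mean in WT TAC hearts was 58.9 CPM for Thra (53.8 with TMM) and 19.0 CPM for Slc16a10 (17.3 with TMM). Small log2 fold changes, not called with all libraries, changed sign: limma-voom gave Crym 0.64 with TAC in WT hearts, and leaving out libraries gave ranges, for TAC in T497A hearts, of -0.0505 to 0.16 (Thra), -0.11 to 0.21 (Thrb) and -0.11 to 1.04 (Crym); for Crym, -0.79 to 0.86 with TAC in WT hearts and -0.36 to 1.29 for the difference between TAC effects; and for genotypes after sham, -0.49 to 0.0679 (Dio2), -0.21 to 0.11 (Thrb), -0.0856 to 0.13 (Slc16a10) and -0.68 to 0.89 (Crym). Halved counts changed no call. No paired analysis was run, because the replicate number is identical in all titles. The titles differ in a further number, whose meaning is unknown. In the WT TAC, T497A sham and WT sham groups, most libraries have a further number below the lowest in the T497A TAC group. The part of this imbalance in the comparisons with T497A TAC hearts was not tested. Depth limits Dio3 and Crym, and 3 libraries a group limit every test: an exact permutation test of 3 against 3 cannot go below 0.1.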
